A study of Mus musculus with 47 samples.

Results

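The cerebral cortex of mice fed cuprizone for 12 weeks was set against the cortex of naive mice by RNA sequencing. All libraries labelled cortex with a 12-week treatment period were taken (3), together with all labelled naive cortex (4), which made 7 of the 47 libraries of the series, and 17054 of the 21034 genes with a usable name could be tested. The 3 cuprizone libraries came from wild-type C57BL/6 mice kept on chow with cuprizone until dissection (2 female, 1 male), and no age is on their labels. The 4 naive libraries came from wild-type C57BL/6 mice of 8 months on normal chow (2 female, 2 male). By the feeding schedule in the study's methods the cuprizone mice were younger than the naive mice, so age and cuprizone cannot be told apart here. Besides these, the series holds 8 cortex libraries of mice returned to normal chow, 25 libraries of corpus callosum and hippocampus from the same chronic design, and 7 of an acute design.

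Cuprizone is a copper chelator that puts metabolic stress on mature oligodendrocytes, the myelin-forming cells of the brain, and their loss is followed by demyelination and by activation of microglia and astrocytes. Stressed cells use the integrated stress response, in which phosphorylation of the translation factor eIF2 lowers general protein synthesis while transcription factors such as ATF4 and ATF5 are made and switch on genes for amino acid supply and survival. Microglia that clear myelin leave their resting state and switch on a shared set of genes, often called the disease-associated set, and progenitors replace lost oligodendrocytes through a short-lived newly formed stage.

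Whole reads could be recovered from the deposited log2 values of the cortex and so levels are given as normalised reads, which are reads divided by a size factor per library (median of ratios over the 15 cortex libraries). They compare a gene between libraries and not 1 gene with another. The 12-week libraries held 18822927, 16868996 and 6966127 reads and the naive libraries 15060811 to 16672141, so the third 12-week library was the shallowest of the 7. Sex-linked genes matched the labelled sex in 7 of 7 libraries. All 25 cortical neuron identity genes in the table had at least 10 reads in each of the 7 libraries, but genes of neighbouring tissue were present too. *Drd1*, a dopamine receptor gene of striatal neurons, had 1273, 843 and 1030 normalised reads in the 12-week libraries, against 1286, 998, 118 and 943 in the naive libraries, and *C1ql2*, a gene of hippocampal granule cells, had 31.4, 55.4 and 35.7 against 42.4, 45.9, 448 and 24.8. Naive replicate 3 therefore stood apart from the other 6 libraries in both, low in the striatal and high in the hippocampal gene, and results are also given without it where that matters.

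Only 11 genes passed the test between 12 weeks of cuprizone and naive cortex, and 10 of them were higher. The higher ones were the stress response genes *Atf5* and *Gdf15*, the reductase gene *Cyb5r2* and the microglial genes *Itgax* and *Clec7a*. Higher too were the long non-coding RNA *9630013A20Rik*, the collagen gene *Col5a3*, the hormone gene *Avp*, and *Cirbp* and *Iqck*. The oligodendrocyte gene *Car2* was the only one lower. In RefSeq on GRCm38.p6 *Atf5* at chr7:44812256-44816658, *Itgax* at chr7:128129526-128150657, *Cyb5r2* at chr7:107748446-107758202 and *Iqck* at chr7:118855752-118972120 lie on chromosome 7. The others are *Avp* at chr2:130580620-130582588, *Car2* at chr3:14886269-14900770, *Clec7a* at chr6:129461591-129472785, *Gdf15* at chr8:70629393-70632470, *Col5a3* at chr9:20770050-20815117, *Cirbp* at chr10:80165990-80172786 and *9630013A20Rik* at chr14:84458724-84476424. All are protein-coding but *9630013A20Rik*. In limma with Benjamini-Hochberg adjustment 0.0645% of the 17054 genes were called at an adjusted p below 0.05, which is 0.0586% higher and 0.00586% lower, and 1576 (9.24%) had an unadjusted p below 0.05. The 3 and 4 libraries did not overlap for 2149 genes (12.6%), with 843 (4.94%) above and 1306 (7.66%) below naive. All 11 genes had the same direction within females (2 against 2) and within males (1 against 2). The adjusted p of the genes just inside the threshold were 0.040 for *Cirbp* and 0.045 for *Iqck*, and among those just outside it were *1810020O05Rik* and *Tmem98* (0.063 each) and *Trib3* (0.070). *Atf5* and *Itgax* passed under all 20 alternative settings tried. *Clec7a* passed under 17, *Cyb5r2* under 15, *9630013A20Rik* under 14 and *Gdf15* under 14 of the 17 in which it could be tested. A filter on the cortex libraries alone and the voom fits left *Gdf15* out for too few reads. *Car2* and *Cirbp* passed under 10, *Avp* and *Col5a3* under 9 and *Iqck* under 8. A correction for transcript length and GC content called 11 higher and 3 lower. Leaving out 12-week replicates 1, 2 and 3 gave 9, 7 and 3 calls, and leaving out naive replicates 1, 2, 3 and 4 gave 16, 7, 6 and 5. In bulk tissue fewer cells of a type and less RNA per cell cannot be told apart.

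**Figure D1:**
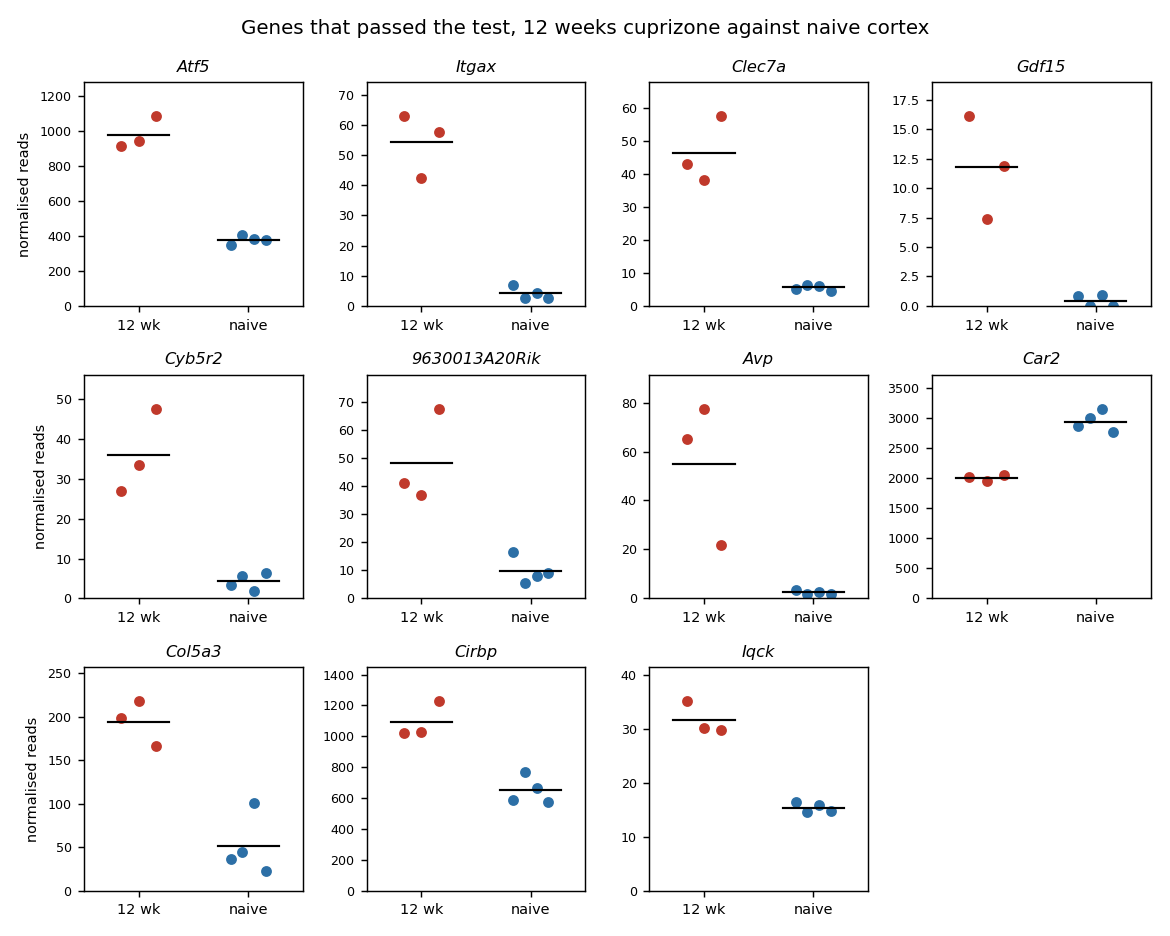
Normalised reads (vertical axis, from 0) of each of the 11 genes past the threshold, with 12-week cortex (red, 3 libraries) left of naive cortex (blue, 4 libraries) and a black line at each group mean. In no panel do the groups overlap, and *Car2* is the only gene with the 12-week libraries below naive.

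Members of the integrated stress response list made up 3 of the 11, and that list was chosen with earlier results of these data known. *Atf5*, a transcription factor whose translation is favoured under stress, had 911, 940 and 1081 normalised reads in 12-week cortex, against 348, 404, 382 and 376 in naive cortex. The groups were far apart and each was narrow, and *Atf5* rose 2.59-fold in mean normalised reads (difference of deposited values 1.28 ± 0.10 log2 units, ± SE, 3 against 4 libraries, limma adjusted p = 3.8e-05). *Gdf15*, a secreted stress cytokine that acts on the hindbrain, had 22, 9 and 6 reads in the 12-week libraries, against 1, 0, 1 and 0 in the naive libraries. At equal depth that was a ratio of 26.7 with a 95% exact counting interval of 6.88 to 228, and the gene passed in limma (0.99 ± 0.13, adjusted p = 0.0067). *Cyb5r2*, a cytochrome b5 reductase gene, had 27.045, 33.4 and 47.6 normalised reads in 12-week cortex, against 3.46, 5.51, 1.76 and 6.43 in naive cortex. It rose 8.40-fold in mean normalised reads (1.23 ± 0.16 log2 units, adjusted p = 0.0067). The deposited scale is compressed at low counts, which is why a difference of about 1 there can stand for a much larger ratio of reads.

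Of 23 genes of the integrated stress response list 22 could be tested and these 3 passed, all of them upward. The list median was 0.19, against −0.01 over all genes tested, with 17 members above and 5 below 0. All 12-week libraries were above naive in 8 members, against 4.94% of all genes. Since the list was chosen with earlier results known, these counts only describe it. Without 12-week replicate 2 the median was 0.12. *Trib3*, a pseudokinase induced by ATF4, had 32.2, 59.5 and 53.6 normalised reads in 12-week cortex, against 24.2, 12.8, 13.2 and 15.6 in naive cortex (0.83 ± 0.15, adjusted p = 0.070). *Nupr1*, a stress-induced chromatin protein gene, had 153, 244 and 212 against 92.5, 106, 58.2 and 94.6 (0.97 ± 0.20, adjusted p = 0.12). Neither group pair overlapped, although neither gene passed. *Atf4* itself had 1485, 2037 and 1752 normalised reads in 12-week cortex, against 1853, 2476, 1969 and 2147 in naive cortex, and *Ddit3*, which encodes CHOP, had 296, 324 and 292 against 274, 333, 273 and 264. The groups overlapped for each of them (−0.28 and 0.06, adjusted p = 0.55 and 0.91). Among amino acid genes that this pathway controls, the transporters *Slc7a5* and *Slc1a5* lay at 0.44 and 0.61 and the folate enzyme gene *Aldh1l2* at 0.49, with all 12-week libraries above naive for each, and *Asns*, the asparagine synthetase gene, lay at −0.11. None of these 4 passed (adjusted p from 0.29 to 0.80), and 0 of 12 amino acid transporter genes, 0 of 17 serine, one-carbon and amino acid synthesis genes and 0 of 19 aminoacyl-tRNA synthetase genes did, with medians of 0.13, −0.03 and −0.07.

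The promoters of these genes are shown because ATF4 and its partners bind a known element, the C/EBP-ATF response element, searched here on both strands as TGATGNAAN in windows from 250 bases before to 50 bases after each start site (RefSeq, GRCm38.p6). It was found in 10 of 26 windows of the integrated stress response list (38.5%), against 1299 of all 32851 windows (3.95%). Of the 10 called genes that had a window (all but *Car2*), *Cyb5r2* alone held it (1 of 14 windows, 7.14%). *Atf5* and *Gdf15* held no match in these windows. The list was meant to hold genes of the pathway and was chosen with earlier results known, so its share only describes the list. The matches of *Cyb5r2* (chr7:107758002-107758034, plus strand, opposite to the gene), *Asns* (chr6:7693212-7693244, minus strand) and *Chac1* (chr2:119351036-119351068, minus strand), read in the direction of the element, were as follows, with the element in capitals.
Cyb5r2: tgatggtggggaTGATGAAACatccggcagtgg
Asns: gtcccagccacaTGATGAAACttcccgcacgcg
Chac1: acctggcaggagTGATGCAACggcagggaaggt

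*Cyb5r2* and *Asns* carried the same 9 letters, yet *Cyb5r2* rose and *Asns* had 1577, 1580 and 1621 normalised reads in 12-week cortex, against 1674, 1691, 1643 and 1794 in naive cortex. *Chac1*, a glutathione-degrading enzyme gene, had 98.7, 130 and 111 against 93.4, 117, 99.7 and 121, and its groups overlapped (0.04, adjusted p = 0.95). In *Cyb5r2* the element begins 10 bases after the start site used. The whole *Cyb5r2* window (chr7:107757983-107758282, minus strand, the gene's own direction) shows it in capitals, at the 3′ end.
Cyb5r2: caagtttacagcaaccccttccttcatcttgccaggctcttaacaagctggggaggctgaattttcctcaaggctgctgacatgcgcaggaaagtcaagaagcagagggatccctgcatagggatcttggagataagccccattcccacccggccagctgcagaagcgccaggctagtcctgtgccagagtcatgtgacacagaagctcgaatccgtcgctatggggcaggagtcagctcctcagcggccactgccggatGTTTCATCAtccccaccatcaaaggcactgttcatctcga

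Among microglial genes *Itgax* and *Clec7a*, members of the disease-associated set, rose and no gene of the resting set passed. *Itgax*, which encodes the integrin CD11c of activated microglia, had 62.9, 42.4 and 57.5 normalised reads in 12-week cortex, against 6.92, 2.75, 4.41 and 2.76 in naive cortex. *Clec7a*, which encodes the receptor dectin-1, had 43.1, 38.3 and 57.5 against 5.19, 6.42, 6.17 and 4.59. All 3 cuprizone libraries lay several-fold above every naive library, and both genes rose (12.9-fold and 8.28-fold in mean normalised reads, 1.61 ± 0.14 and 1.35 ± 0.17 log2 units, limma adjusted p = 7.4e-05 and 0.0066). *Cst7*, a cysteine protease inhibitor gene of the same set, had 17.5, 13.9 and 15.9 normalised reads in 12-week cortex, against 3.46, 2.75, 2.65 and 1.84 in naive cortex, and missed the threshold (0.77 ± 0.16, adjusted p = 0.12). *Lgals3*, the galectin-3 gene, had 21.2, 13.9 and 9.92 against 0.865, 1.84, 4.41 and 0.919 (0.83 ± 0.20, adjusted p = 0.22). The lysozyme gene *Lyz2* had 139, 129 and 119 against 56.2, 71.6, 60.9 and 59.7 (0.78 ± 0.18, adjusted p = 0.19). These 3 also separated the groups completely.

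Over the 26 genes of the disease-associated set 2 passed, both upward, 20 lay above and 6 below 0, and in 9 all 12-week libraries were above naive, against 4.94% of all genes. The median was 0.16 (0.098 without 12-week replicate 3). *Cd68*, a lysosomal protein gene of phagocytes, and *Ccl6*, a chemokine gene, were among the 9 (0.56 and 0.62, adjusted p = 0.22 and 0.14). Of 17 genes of resting microglia 0 passed and the median was −0.03 (0.074 without naive replicate 1). *P2ry12*, the purinergic receptor gene that resting microglia express, had 441, 403 and 502 normalised reads in 12-week cortex, against 632, 496, 408 and 673 in naive cortex, with overlap. Of 14 complement genes 0 passed, with a median of 0.12. *C4b* had 603, 611 and 631 against 229, 184, 405 and 362 (1.02 ± 0.26, adjusted p = 0.26), while *C1qa*, from the first complement component, was level (648, 686 and 645 against 655, 682, 549 and 606). Antigen presentation genes had 0 of 16 past the threshold and a median of 0.19 (0.12 without 12-week replicate 2), with *Cd74*, the invariant chain gene, at 83.3, 63.6 and 57.5 against 37.2, 23.9, 38.8 and 54.2 (adjusted p = 0.56). Few markers of other immune cells could be tested. They were 4 of 14 T and B lymphocyte, 5 of 10 neutrophil and monocyte and 1 of 8 blood cell genes, and 0 passed. The summed level of the T and B lymphocyte markers was 246 to 361 normalised reads in the 12-week libraries. In the naive libraries it was 208, 280, 46.7 and 216, so the groups overlapped. The lowest was naive replicate 3, which was also low in striatal genes, and a link between these was not tested. The summed level of the neutrophil and monocyte markers was 5.12 to 12.2 normalised reads in the 12-week libraries and 7.35 to 17.4 in the naive libraries.

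**Figure D2:**
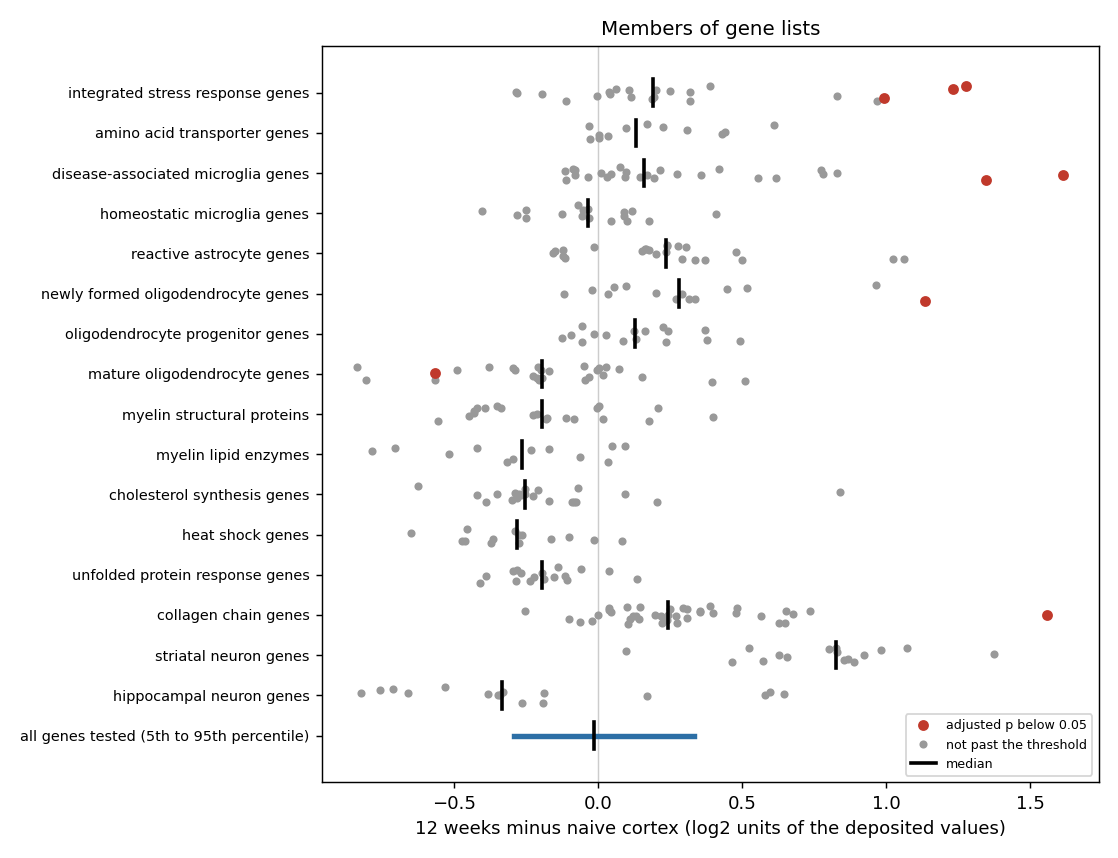
Difference between 12-week and naive cortex (horizontal axis, log2 units of the deposited values) for each tested member of 16 gene lists, 1 list per line, with genes past the threshold in red, the others in grey and a black bar at the list median. The blue line shows the 5th to 95th percentile of all genes tested. Among the lists that hold red points, these lie to the right of 0 in all but that of mature oligodendrocytes.

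In the oligodendrocyte lineage *Car2* fell and *9630013A20Rik* rose, and the medians of the mature and the newly formed genes lay on opposite sides of 0. *Car2*, which encodes carbonic anhydrase 2 of mature oligodendrocytes, had 2022, 1942 and 2044 normalised reads in 12-week cortex, against 2858, 2988, 3145 and 2754 in naive cortex. It fell to 0.682 of the naive mean (−0.57 ± 0.09 log2 units, 3 against 4 libraries, limma adjusted p = 0.030, and 0.0067 to 0.21 over the alternatives). *Car2* was the one call among 26 tested genes of mature oligodendrocytes. Their median was −0.19 (−0.13 without 12-week replicate 3), but −0.01 within females and −0.31 within males. *Tmem98*, which encodes a membrane partner of the myelin regulator MYRF, had 89.2, 72.5 and 93.3 against 124, 164, 165 and 143 (−0.66 ± 0.12, adjusted p = 0.063). The transporter gene *Abca8a* had 131, 98.6 and 133 against 252, 188, 235 and 270 (−0.83 ± 0.17, adjusted p = 0.12). In both the groups were separate, though neither passed.

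No gene of compact myelin passed. *Mbp*, the myelin basic protein gene, had 36748, 35042 and 36029 normalised reads in 12-week cortex, against 37588, 54982, 52339 and 38163 in naive cortex (−0.35 ± 0.16, adjusted p = 0.54). The 3 cuprizone libraries were below all naive ones for *Mbp*, but the female naive replicates 1 and 4 lay close to them, so that the difference was −0.10 within females and −0.60 within males. *Mog*, an outer myelin protein gene, had 693, 672 and 605 against 610, 814, 797 and 736, with overlap. Of 20 myelin structural genes 0 passed, 15 lay below 0, 6 had all 12-week libraries below naive (7.66% of all genes) and the median was −0.19 (−0.10 within females, −0.30 within males). Of 12 myelin lipid enzyme and channel genes 0 passed, with a median of −0.26 and the lipid enzyme genes *Ugt8a* and *Fa2h* at −0.70 and −0.52 (adjusted p = 0.34 and 0.23). Some genes of the lineage stood on the other side of 0. *Gjc3*, the connexin 29 gene, had 1317, 1242 and 1292 against 820, 911, 878 and 906 (0.51 ± 0.16, adjusted p = 0.37), and *Myrf* and *Olig2*, transcription factor genes of the lineage, lay at 0.40 each (adjusted p = 0.48 and 0.40).

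Newly formed oligodendrocyte genes had a median of 0.28 over 14 members, 12 of them above 0, and their summed level was 15614 to 17529 normalised reads in the 12-week libraries and 13188 to 14039 in the naive libraries. *9630013A20Rik*, a long non-coding RNA on chromosome 14 that marks this stage, had 40.9, 36.7 and 67.5 normalised reads in 12-week cortex, against 16.4, 5.51, 7.94 and 9.19 in naive cortex. It rose 4.95-fold in mean normalised reads (1.14 ± 0.16 log2 units, limma adjusted p = 0.015) and was the only member to pass. *Tmem163*, a zinc transporter gene, had 305, 279 and 278 against 155, 196, 191 and 216 (0.52 ± 0.14, adjusted p = 0.32). *Tcf7l2*, a Wnt transcription factor gene that is also expressed in the thalamus, had 312, 240 and 169 against 143, 90.9, 88.2 and 98.3 (0.96 ± 0.40, adjusted p = 0.49). *Bcas1* and *Gpr17*, 2 markers of the stage, overlapped between the groups (0.27 and 0.45, adjusted p = 0.62 and 0.51). Of 16 progenitor genes 0 passed and the median was 0.13, but −0.10 within females and 0.30 within males, and 0.20, 0.064 and 0.036 without naive replicates 1, 2 and 3, and the progenitor gene *Cspg4* lay at 0.23 with overlap. Cell cycle genes had 0 of 25 past the threshold and a median of 0.18.

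No astrocyte gene passed, and naive replicate 3 was the highest naive library for several of them. *Gfap*, the intermediate filament gene of reactive astrocytes, had 3997, 3530 and 4348 normalised reads in 12-week cortex, against 1317, 1407, 3735 and 1660 in naive cortex. The 12-week libraries exceeded 3 of the 4 naive libraries by more than 2-fold and overlapped with replicate 3 (1.06 ± 0.32, limma adjusted p = 0.36), and without that replicate the difference was 1.39. *Vim* and *Serpina3n*, further genes of reactive astrocytes, lay at 0.50 and 0.37 (adjusted p = 0.42 and 0.66), and naive replicate 3 was again the highest naive library in both. Of 23 reactive astrocyte genes 0 passed, 17 lay above 0 and the median was 0.24 (0.15 without 12-week replicate 1, 0.16 without naive replicate 2). The glutamate transporter gene *Slc1a2* had 57683, 58348 and 59868 against 75264, 55722, 46729 and 79231, and 24 genes of resting astrocytes had a median of −0.06 with 0 calls.

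*Col5a3*, a chain of the fibrillar collagen V, was the one matrix gene to pass. It had 199, 218 and 167 normalised reads in 12-week cortex, against 36.3, 44.97, 101 and 22.97 in naive cortex, where replicate 3 was the highest. It rose 3.80-fold in mean normalised reads (1.56 ± 0.25 log2 units, limma adjusted p = 0.037), but passed in 9 of 20 alternatives, with adjusted p from 8.3e-04 (without naive replicate 3) to 0.23. Of 39 collagen genes 34 lay above 0, 7 had all 12-week libraries above naive (4.94% of all genes) and the median was 0.24 (0.34 without naive replicate 3, 0.16 without naive replicate 4). *Col1a1* had 99.4, 100 and 103 against 43.2, 48.6, 81.1 and 40.4, *Col3a1* had 43.1, 40.7 and 33.7 against 19.02, 9.18, 22.9 and 18.4, and neither passed (adjusted p = 0.55 and 0.48). Markers of mural and leptomeningeal cells had a median of 0.33 over 22 genes (0.57 without naive replicate 3, 0.11 without naive replicate 2), 0 calls and a summed level of 11036 to 11594 normalised reads in the 12-week libraries and 7156 to 12048 in the naive libraries. The smooth muscle gene *Acta2* had 368, 302 and 357 against 105, 117, 211 and 153 (1.09 ± 0.30, adjusted p = 0.32), and *Igf2*, a growth factor gene of the meninges, had 825, 715 and 714 against 441, 303, 524 and 541. The part of meningeal or vessel tissue in the collagen values was not tested.

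*Cirbp*, which encodes a cold-inducible RNA-binding protein, had 1021, 1027 and 1226 normalised reads in 12-week cortex, against 588, 772, 664 and 578 in naive cortex. The groups were apart and *Cirbp* rose 1.68-fold (0.70 ± 0.11 log2 units, limma adjusted p = 0.040, and 0.0063 to 0.32 over the alternatives). *Rbm3*, the other cold-inducible gene of this kind, had 409, 418 and 385 against 230, 346, 289 and 299 (0.42 ± 0.13, adjusted p = 0.36). Heat shock chaperone genes had differences below 0. *Hsph1*, a large cytosolic chaperone gene, had 4302, 4519 and 4135 against 5601, 6396, 5736 and 5916 (−0.47 ± 0.09, adjusted p = 0.092), and *Hspa1b*, an inducible HSP70 gene, had 44.6, 35.04 and 33.7 against 62.3, 78.01, 90.0 and 64.3 (−0.65 ± 0.13, adjusted p = 0.10). Of 14 heat shock genes 0 passed, 13 lay below 0, 8 had all 12-week libraries below naive (7.66% of all genes) and the median was −0.28. Their summed level was 20448 to 22265 normalised reads in the 12-week libraries and 25724 to 29856 in the naive libraries. Unfolded protein response genes had 15 of 17 below 0 and a median of −0.19, and *Hspa5*, the main chaperone gene of the endoplasmic reticulum, lay at −0.28 (adjusted p = 0.53).

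The *Cirbp* promoter is printed because it holds a mild cold response element, searched as TCCCCGCC on both strands. This element was present in 1768 of the 32851 windows (5.38%) and in 3 of the 14 windows of called genes (21.4%, *Cirbp*, *Atf5* and *Col5a3*). In the integrated stress response list 5 of 26 windows held it (19.2%). The difference between these shares was not tested. The window of *Cirbp* (chr10:80167589-80167888, plus strand, RefSeq, GRCm38.p6) carries the element at its 5′ end, in capitals.
Cirbp: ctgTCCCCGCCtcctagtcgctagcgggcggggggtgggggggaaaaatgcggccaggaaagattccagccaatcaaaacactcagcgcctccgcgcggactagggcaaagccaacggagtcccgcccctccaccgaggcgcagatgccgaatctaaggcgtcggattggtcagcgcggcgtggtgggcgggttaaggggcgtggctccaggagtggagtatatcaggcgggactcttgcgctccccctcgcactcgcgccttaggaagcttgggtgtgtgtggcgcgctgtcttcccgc

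No gene of cholesterol synthesis passed, and most lay below 0. Of 21 members 18 lay below 0, 9 had all 12-week libraries below naive (7.66% of all genes) and the median was −0.25 (−0.26 within females, −0.14 within males). *Cyp51*, the lanosterol demethylase gene, had 906, 1023 and 1048 normalised reads in 12-week cortex, against 1329, 1441, 1259 and 1244 in naive cortex (−0.42 ± 0.10, limma adjusted p = 0.22), and the synthase and epoxidase genes *Hmgcs1* and *Sqle* lay at −0.28 and −0.25 with separate groups. Nuclear genes of the respiratory chain and of ribosomal proteins had medians of −0.21 and −0.20, with 74 of 74 and 76 of 78 members below 0 and 0 calls in each. These medians were −0.08 and −0.03 within females but −0.36 and −0.36 within males, and the naive males (replicates 2 and 3) had a summed ribosomal level of 88992 and 83489 normalised reads, against 72637 and 69055 in the naive females. Differences also ran with transcript length across 16564 genes (Spearman correlation 0.12 over all libraries, −0.15 within females, 0.27 within males, with genes that are not independent of each other). The part of sex or of RNA length bias in these lists was not tested.

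*Avp*, the vasopressin gene of hypothalamic neurons, had the largest difference of the called genes on the deposited log2 scale. It had 65.1, 77.4 and 21.8 normalised reads in 12-week cortex, against 3.46, 1.84, 2.65 and 1.84 in naive cortex, so all 3 cuprizone libraries were above (1.71 ± 0.26 log2 units, limma adjusted p = 0.030, and 0.0040 to 0.26 over the alternatives, ratio at equal depth 25.6 with a 95% exact counting interval of 13.97 to 52.05). Other genes of the hypothalamus were also high in some of the 12-week libraries. *Oxt*, the oxytocin gene, had 53.4, 68.5 and 9.92 against 15.6, 1.84, 0.882 and 1.84, *Pmch*, the melanin-concentrating hormone gene, had 4.39, 280 and 121 against 2.59, 0.918, 7.06 and 0.919, and *Hcrt*, the orexin gene, had 0, 49.7 and 47.6 against 0, 0.918, 0 and 0. *Prkcd*, a kinase gene of thalamic neurons, had 968, 644 and 212 against 145, 121, 218 and 161, and *Ttr*, the transthyretin gene of the choroid plexus, had 248, 415 and 337 against 19.02, 105, 189 and 119. None of these 5 passed (adjusted p from 0.28 to 0.56), and 12-week replicate 2 was the one library above every naive library in all 5. In the recovery libraries *Avp* had 0 to 10.9 normalised reads and *Oxt* 0 to 11.2. Some of the other genes were high there too. Replicate 2 at 12+8 weeks had 265 of *Pmch*, 56.8 of *Hcrt* and 4325 of *Ttr*, and replicate 2 at 12+4 weeks had 821 of *Prkcd*. Whether tissue below the cortex entered the dissection was not tested beyond these values.

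**Figure D3:**
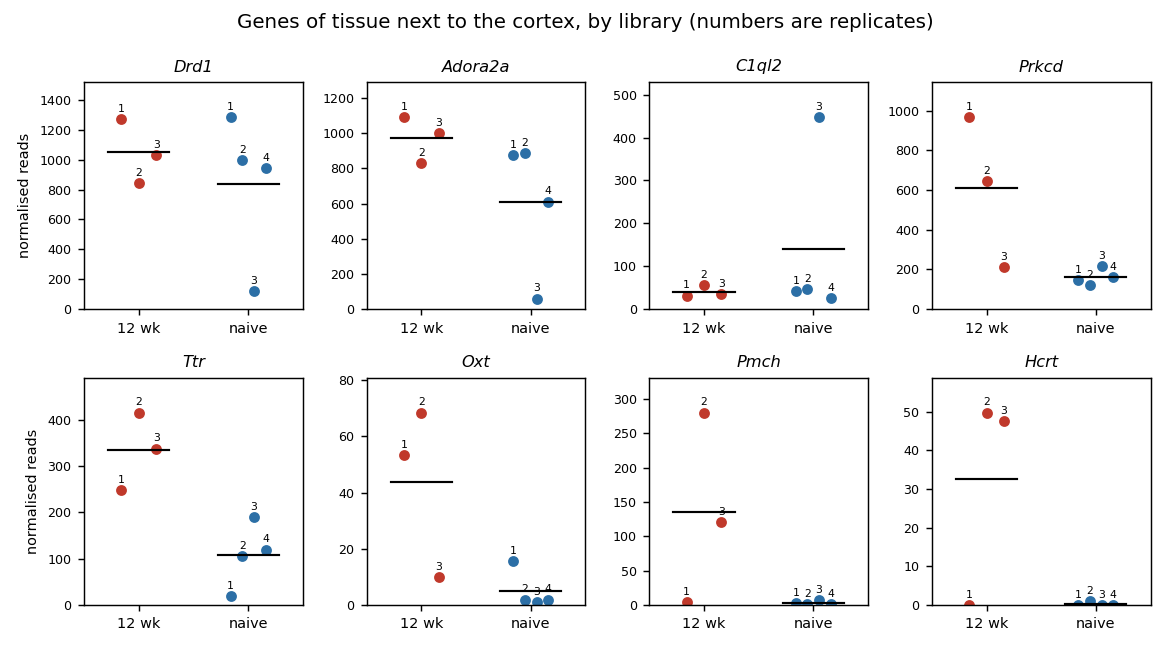
Normalised reads (vertical axis, from 0) of genes of striatum (*Drd1*, *Adora2a*), hippocampus (*C1ql2*), thalamus (*Prkcd*), choroid plexus (*Ttr*) and hypothalamus (*Oxt*, *Pmch*, *Hcrt*) in each library, 12-week (red) left of naive (blue), with replicate numbers at the points and lines at the means. Naive replicate 3 is the low point for *Drd1* and *Adora2a* and the high point for *C1ql2*, and the 12-week replicates differ among themselves in the hypothalamic genes.

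Lists of striatal and hippocampal genes set naive replicate 3 apart as well. All 16 tested striatal genes lay above 0 with a median of 0.83, which was 0.22 without naive replicate 3, and their summed level was 31998 to 42253 normalised reads in 12-week cortex and 7554 to 34249 in naive cortex. *Adora2a*, an adenosine receptor gene, had 1092, 828 and 1002 against 877, 888, 59.1 and 611. The 16 hippocampal genes had a median of −0.33, and −0.01 without that replicate. Other tissue lists differed beyond that replicate. Thalamic and basal forebrain genes had a median of 0.49 over 12 members, 11 of them above 0, and 0.39 without naive replicate 3. Choroid plexus and ependymal genes had a median of 0.22 over 14 members, and 0.45 without it. Their summed level was 829 to 923 normalised reads in 12-week cortex and 393 to 761 in naive cortex. None of these lists had a call. *Iqck*, an IQ motif protein gene and the last of the 11, had 35.1, 30.2 and 29.8 normalised reads in 12-week cortex, against 16.4, 14.7, 15.9 and 14.7 in naive cortex, and rose 2.05-fold (0.51 ± 0.08 log2 units, limma adjusted p = 0.045, and 0.0065 to 0.34 over the alternatives).

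Neuronal genes gave no call in any list. Cortical excitatory identity genes had a median of −0.06 over 25 members (0.043 without naive replicate 4), inhibitory neuron genes 0.05 over 20 (−0.040 without naive replicate 2), and neurofilament and axon genes −0.15 over 16. *Neurod6*, a transcription factor gene of excitatory neurons, had 664, 791 and 651 normalised reads in 12-week cortex, against 1023, 1233, 1862 and 1332 in naive cortex (−0.92 ± 0.20, limma adjusted p = 0.15). *Nefl*, the neurofilament light gene, had 4487, 4574 and 3911 against 4782, 5629, 6917 and 5978 (−0.44 ± 0.12, adjusted p = 0.30), and *Snap25*, a synaptic vesicle fusion gene, lay at −0.48 (adjusted p = 0.44). The 12-week libraries were the lowest for all 3. Immediate early genes, which follow neuronal activity, had a median of −0.26 over 21 genes (−0.51 within females, 0.05 within males, and −0.077, −0.47, −0.47 and −0.17 without 12-week replicate 1, 12-week replicate 2, naive replicate 3 and naive replicate 4), with *Fos* at 282, 675 and 530 against 965, 597, 405 and 637. Since the naive mice were older, lists of age-related genes were counted too. Genes known to rise with age had a median of 0.28 over 18 members (0.46 without naive replicate 4) and genes known to fall with age one of 0.35 over 18, with 0 calls in each. All 12-week libraries were above naive in 9 of the first list and 8 of the second (4.94% of all genes). They were all below naive in 0 and 2 (7.66% of all genes). The part of age in these values was not tested. The second list holds *Col1a1* and *Col3a1*, and the first list shares *Gfap*, *C4b*, *Cd68*, *Cst7* and *Lyz2*, among others, with the glial lists above.

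The 11 genes were followed in the cortex of mice returned to normal chow for 4, 8 or 12 weeks (3, 3 and 2 libraries), which were compared with the same naive libraries. Both libraries at 12 weeks of recovery were female, while the other groups held both sexes. Replicate 1 of these was the shallowest of the 15 cortex libraries (6569406 reads). *Atf5* had 375, 355 and 384 normalised reads at 4 weeks, 418, 482 and 386 at 8 weeks and 318 and 362 at 12 weeks, all far below the 12-week cuprizone libraries. *Gdf15* (0 to 1.61 normalised reads in the 8 recovery libraries) and *Cyb5r2* (0.935 to 8.65) were also near their naive levels at 4 weeks. The microglial genes lay above naive at 4 weeks but did not pass there (limma adjusted p = 0.38 for *Itgax* and 0.71 for *Clec7a*). *Itgax* had 32.6, 14.1 and 19.6 at 4 weeks, 4.82, 3.16 and 3.84 at 8 weeks and 2.23 and 3.16 at 12 weeks, and *Clec7a* had 39.5, 15.9 and 14.96, then 7.23, 3.95 and 7.69, then 0 and 2.11. At 4 weeks every library of both genes was above every naive library, and at 8 weeks the values were near them. *9630013A20Rik* had 24.7, 21.6 and 21.5, then 21.7, 16.6 and 23.1, then 33.4 and 15.8, of which 15.8 alone lay inside the naive range of 5.51 to 16.4. *Car2* had 2577 to 2863 at 4 weeks and 2639 to 3033 at 8 weeks, but 2417 and 2180 at 12 weeks, and *Cirbp* had 581 to 788 over the 8 libraries. Against naive, limma called 0 of 17054 genes at each recovery time, while 844, 758 and 1596 had an unadjusted p below 0.05. The difference between recovery and 12 weeks of cuprizone was not tested.

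**Figure D4:**
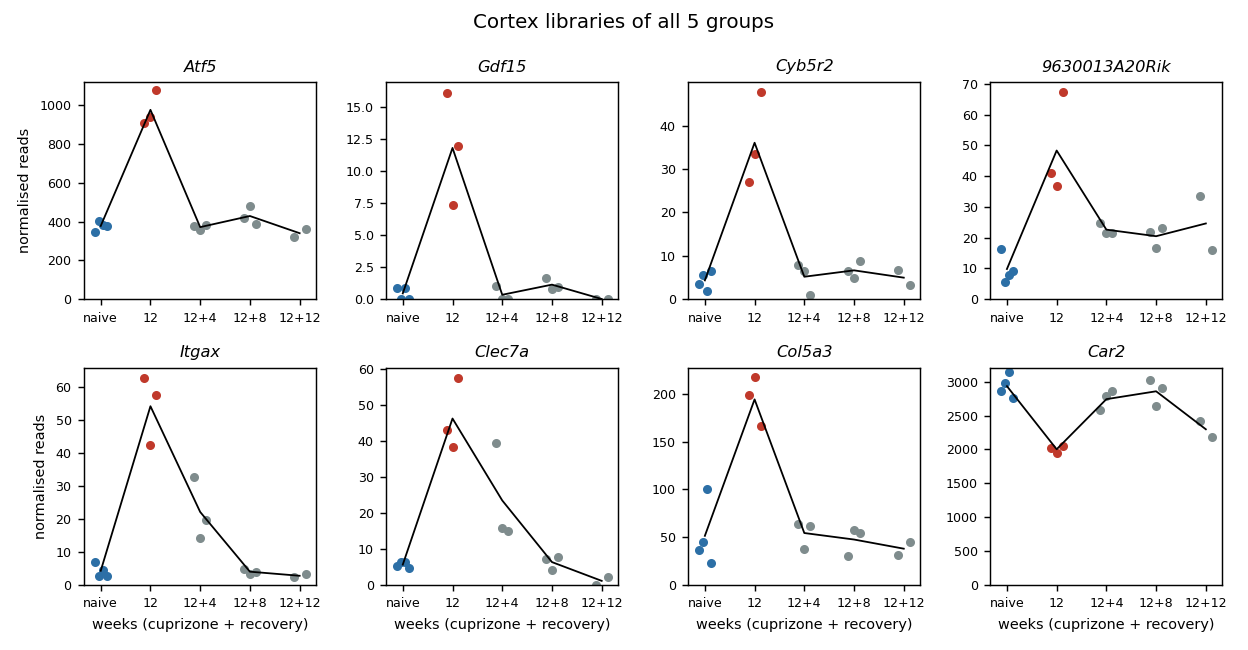
Normalised reads (vertical axis, from 0) of 8 called genes in the cortex libraries of all 5 groups, from naive through 12 weeks of cuprizone to 4, 8 and 12 further weeks of recovery, with each library as a point and a line through the group means. *Atf5*, *Gdf15*, *Cyb5r2* and *Col5a3* are near naive at 12+4 weeks, while *Itgax* and *Clec7a* are between.

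The effect of 12 weeks was set beside that in the corpus callosum (2 against 3 libraries) and the hippocampus (3 against 3). The labels give the same sequencer and read length for all libraries, but the study's methods give a different sequencer and shorter reads for the cortex than for the other regions, so region and sequencing may not be separable. In the callosum 3369 genes (19.8%) were called, and 7 of the 11 cortical genes were among them with the same direction, namely *Atf5* (0.72), *Itgax* (1.13), *Gdf15* (1.05), *9630013A20Rik* (0.91), *Col5a3* (2.29), *Cirbp* (0.41) and *Car2* (−1.22). In the hippocampus 0 genes (0%) were called. The 11 had the cortical sign there in 9, with *Atf5* at 1.40 and *Itgax* at 0.90, and the opposite sign in *Avp* (−0.14) and *Iqck* (−0.53). *Avp* and *Iqck* also lay below 0 in the callosum (−0.35 and −0.41), where neither was called. The share of all genes with the same sign in both regions was not counted. Of the 6 hippocampal libraries 3 had intermediate levels of both female and male sex-linked genes, which the cortex and callosum libraries did not. The difference of effects passed in limma for 409 genes (2.4%) between cortex and callosum, 143 of them with the cortical effect higher (0.839%) and 266 lower (1.56%), and for 0 between cortex and hippocampus, where 1436 had an unadjusted p below 0.05. Without 12-week cortex replicates 1, 2 and 3 the callosum count was 237, 152 and 152, and without naive cortex replicates 1, 2, 3 and 4 it was 347, 481, 662 and 231.

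Several oligodendrocyte and myelin genes had a less negative effect in the cortex than in the callosum. *Mbp* differed by −0.35 in the cortex and −1.68 in the callosum, and the difference of 1.33 ± 0.32 log2 units passed (adjusted p = 0.027). *Abca8a* (1.11 ± 0.26, adjusted p = 0.025), *Plekhb1* (1.22 ± 0.27, adjusted p = 0.021) and *Mal* (1.19 ± 0.32, adjusted p = 0.047) passed as well. Of the mature oligodendrocyte, myelin structural and myelin lipid lists 8 of 26, 5 of 20 and 3 of 12 members passed, all with the cortical effect less negative, and the list medians in the callosum were −0.93, −1.04 and −1.002. *Serpinb1a*, a protease inhibitor gene of oligodendrocytes, lay at 0.07 in the cortex and −1.57 in the callosum (1.64 ± 0.42, adjusted p = 0.038). Of the 11 called genes only *Avp* differed between the regions (2.06 ± 0.42, adjusted p = 0.014), and *Oxt* did with it (1.71 ± 0.47, adjusted p = 0.046). *Necab2* and *Arhgap6* were the others with the largest positive differences among genes past the threshold (1.51 and 1.49). Among the largest negative ones past it were *Grin2b*, an NMDA receptor subunit gene (−2.48 ± 0.44, adjusted p = 0.0087), *Robo3* (−1.84), *Tmem245* (−1.71) and *Arfgef3* (−1.59), all of which rose in the callosum (1.19 to 2.06) and were not called in the cortex. *Grin2b* had 930, 1155 and 931 normalised reads in 12-week cortex, against 2297, 951, 931 and 2469 in naive cortex, where the females (replicates 1 and 4) were the high ones. Across genes the callosal effect ran with transcript length (Spearman correlation 0.40 over 16564 genes), and the cortical effect less so (0.12). The part of this length trend in the region differences was not tested.

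**Figure D5:**
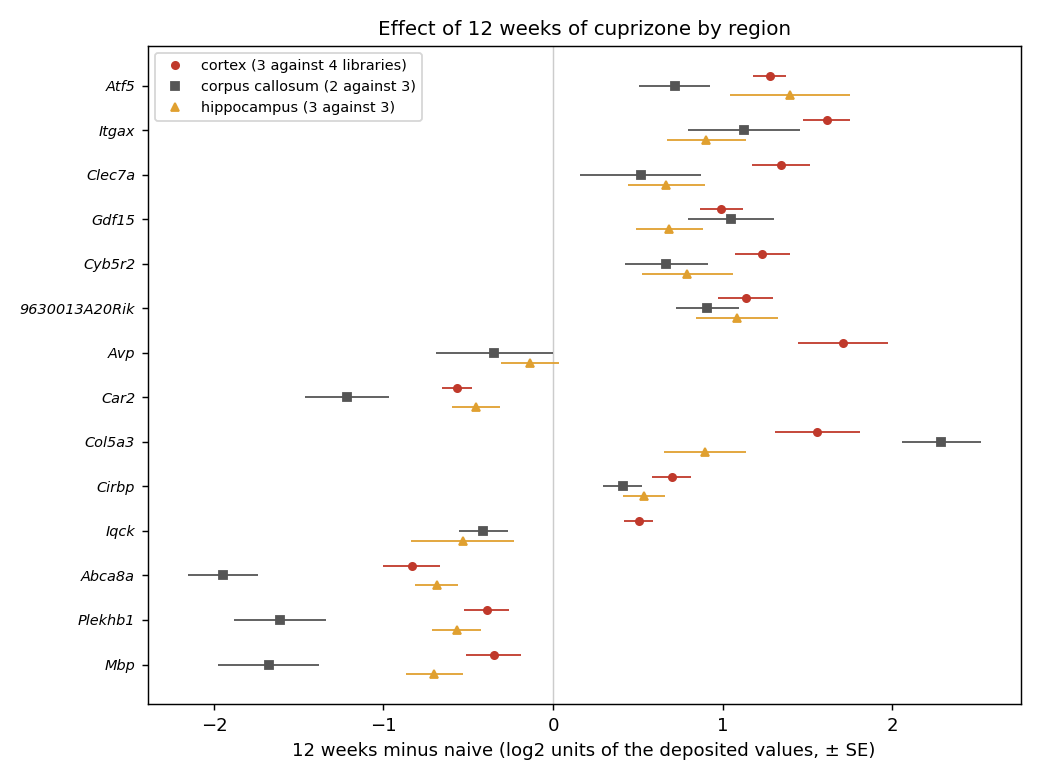
Difference between 12 weeks of cuprizone and naive (horizontal axis, log2 units of the deposited values, bars ± SE) in cortex (red circles), corpus callosum (grey squares) and hippocampus (yellow triangles) for the 11 called genes and for *Abca8a*, *Plekhb1* and *Mbp*. The 3 oligodendrocyte genes at the bottom lie further below 0 in the callosum than in the cortex.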

How the data were processed

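RNA was sequenced from microdissected cortex after perfusion with saline. Per the labels the libraries were stranded and poly(A)-selected, and the authors aligned reads to GRCm38 (mm10) with TopHat2 2.0.13 and used DESeq2 (version not given in the sources used here). The deposited values are log2 values from a variance-stabilising type of transform, centred per gene. Whole reads were recovered from them for 100% of 21061 rows in the 15 cortex libraries (within 0.001 of a whole number, largest distance 0.000138), which gave the library totals. Names turned into dates (27 rows, 0.307 to 0.371% of reads) were left out.

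Genes at the lowest value in more than 10 of the 40 chronic libraries were not tested. The test was limma 3.58.1 (R 4.3.3) on the deposited log2 values, with the 15 cortex libraries in 5 groups sharing 1 estimate of the spread, Benjamini-Hochberg adjustment over 17054 genes and a threshold of 0.05. Region differences came from 1 fit over the 40 libraries. Ratios of normalised reads and exact 95% counting intervals are given beside it, and intervals cover counting error only. The labels name separate samples but not separate mice, so p-values measure the spread between these samples, which may be technical.

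Genes were named by rule: up to 12 called genes in each direction, up to 6 called members and the first 3 members of each list, and up to 5 genes in each direction for each region test. Some genes under this rule are not reported here. Other genes were picked after their values were seen. The members and lists were chosen with earlier results of these data known, so list counts set beside shares of all genes only describe the lists. Alternatives covered filters, libraries in the fit, sex, replicate number, length and GC content, normalisation, library weights, variance model and each library left out. Fits by voom on the recovered reads were added after seeing the data. Promoter windows came from RefSeq (GRCm38.p6).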

Additional observations from a re-analysis of the deposited data

Results flagged for a closer look

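In the 4 naive cortex libraries 962 of the genes tested (5.64%) had 1 library far from the other 3, by a gap to the nearest library that took up most of the whole range (Dixon's test at the 95% level), and chance gives about 1 in 20. Among the genes named above, replicate 3 was low in *Drd1* (gap 0.867 of the range) and *Adora2a* (0.849) and high in *C1ql2* (0.839). Replicate 1 was high in *Oxt* (0.854). Replicate 2 was high in *Ddit3* (0.881) and in *Hcrt*, where it alone had any read (gap 1). The groups of 3 or fewer libraries were too small for this measure.

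The effect of 12 weeks of cuprizone differed between cortex and corpus callosum, by the limma test of the difference, with the cortical effect higher for *Avp* (2.06 log2 units), *Oxt* (1.71), *Serpinb1a* (1.64), *Necab2* (1.51) and *Arhgap6* (1.49). It was lower for *Grin2b* (−2.48), *Robo3* (−1.84), *Tmem245* (−1.71) and *Arfgef3* (−1.59). In naive cortex the females (replicates 1 and 4) had more *Grin2b*, *Tmem245* and *Arfgef3* and less *Robo3* than the males (replicates 2 and 3).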

How the results depend on the processing

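All 11 called genes kept their direction under every alternative that gave a value. The count of called genes, 11, was 4 in a fit of the 7 libraries alone, and only 3 of the 11 were among these. Most of the calls therefore relied on the recovery libraries for the estimate of the spread. The count was 13 without a filter (7 of the 11 among them) and 18 with library weights (all 11). It was 8 by voom and 16 by voom with library weights (8 of the 11 in each). With 1 library left out it was 3 to 16, and the 9 calls without 12-week replicate 1 held 6 of the 11. The count between cortex and callosum, 409, was 1636 after quantile normalisation and 152 to 662 with 1 cortex library left out. Between cortex and hippocampus the limma count was 0 under every alternative. The replicate number as a block gave 4 calls, 3 with length and GC correction added, and 172 between cortex and callosum. The deviations of samples with the same number correlated at 0.18, −0.06 and 0.12, not all above 0.1, and the labels tie the numbers to no shared animal or batch, so the block was kept as an alternative. Signs turned for values near 0 or led by 1 library: *Arfgef3* (−0.044 with sex, −0.0049 at the same median, −0.068 with library weights, −0.063 by voom with library weights, −0.24 to 0.26 with 1 library left out), *Robo3* (−0.043 with block, length and GC), and, with 1 library left out, *Chac1* (−0.049 to 0.11), *Serpinb1a* (−0.032 to 0.23), *Drd1* (−0.065 to 0.98) and *C1ql2* (−1.001 to 0.057). The causes were not tested. Over the named genes 1489 values kept direction and side of the threshold, 71 lost the call, 18 gained one and 14 turned. Depth limits genes such as *Gdf15*, with 2 reads in all naive libraries.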
